A study of Mus musculus with 20 samples.

Results

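The 10 genes described here are those of antibody production in the mouse liver: the heavy chain constant genes Ighm, Ighg1, Ighg2b, Ighg2c, Ighg3 and Igha, the light chain constant genes Igkc and Iglc2, and the helper genes Jchain and Mzb1. They were chosen by symbol from the RNA-seq tables, with earlier results of these data known. They are 10 of 56884 genes listed; all 10 members are listed for males and 6 of them for females. RNA-seq was made from the livers of 3 WT mice and 3 Midn-T mice in each sex, aged 11 to 14 weeks. Midn encodes midnolin, a nuclear protein that brings other proteins to the proteasome for degradation. The samples titled WT are labelled Midn XTR, an allele with a gene-trap cassette in an intron that still lets Midn be expressed, and the Midn-T samples are labelled Midn TR, in which Cre has turned the cassette into its trapped form. The Midn-XTR mice were crossed to an Albumin-Cre line, which acts in hepatocytes and not in the cells that make antibody, and whether the WT mice carry Cre is not given in the sources used here. Each table gives, for each gene, the authors' mean over the 6 libraries of 1 sex, WT and Midn-T together, of read counts divided by library size factors (the normalized count). These means carry no spread and no genotype, and the authors' own genotype comparison in the same tables was not used, so WT and Midn-T are not compared here and the trapped gene cannot be checked library by library.

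An antibody is built from paired heavy and light chains. The end that binds antigen is encoded by a variable gene that each B cell joins from a large stock, while the constant gene sets the class: Ighm encodes the chain of IgM, the 4 Ighg genes those of the IgG subclasses and Igha that of IgA, and Igkc and Iglc2 encode kappa and lambda light chains. A B cell first uses Ighm, together with Ighd for IgD, and may later switch to a constant gene farther along the locus. Jchain links IgM and IgA units into the polymers that epithelia transport, and Mzb1 encodes an endoplasmic reticulum protein that helps plasma cells assemble and secrete antibody. In the liver, B cells and plasma cells are minor residents beside hepatocytes, Kupffer cells and endothelium.

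Several of these genes are near copies of each other, and the authors counted only reads with a single place in the genome. In the direction of transcription, the heavy chain genes lie on the minus strand of chromosome 12 of GRCm39 in the order Ighm (chr12:113382178-113386350), Ighg3 (chr12:113319844-113324852), Ighg1 (chr12:113288860-113294143), Ighg2b (chr12:113266585-113271553), Ighg2c (chr12:113248945-113252552) and Igha (chr12:113218450-113223856). Igkc lies on chr6:70703419-70703950, Iglc2 on chr16:19017146-19019101 and Jchain on chr5:88667668-88675750. Over the 1326 exonic bases of Ighg2c, Ighg2b was 88.2% identical, with 157 differing bases, and Iglc2 was 94.9% identical to its neighbour Iglc3 over 452 bases, with 23 differing bases. The most alike coding stretches of both pairs are printed from the reference genome, 5′ to 3′ on the minus strand, because they decide which reads can be told apart; capitals mark the bases at which the pair differs. The Iglc2 stretch is chr16:19017349-19017498 and that of Iglc3 chr16:18884178-18884327, with 3 differing bases in 150, and the Ighg2b stretch is chr12:113270494-113270643 and that of Ighg2c chr12:113251494-113251643, with 1 differing base in 150.
Iglc2: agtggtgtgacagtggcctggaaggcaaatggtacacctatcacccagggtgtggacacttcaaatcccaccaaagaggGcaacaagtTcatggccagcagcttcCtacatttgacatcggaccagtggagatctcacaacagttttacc
Iglc3: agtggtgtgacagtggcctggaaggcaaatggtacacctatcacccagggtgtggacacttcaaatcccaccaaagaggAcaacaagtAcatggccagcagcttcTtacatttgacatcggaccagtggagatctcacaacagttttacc
Ighg2b: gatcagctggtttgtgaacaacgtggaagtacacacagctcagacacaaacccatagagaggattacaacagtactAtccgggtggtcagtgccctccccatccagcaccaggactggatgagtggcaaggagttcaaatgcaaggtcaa
Ighg2c: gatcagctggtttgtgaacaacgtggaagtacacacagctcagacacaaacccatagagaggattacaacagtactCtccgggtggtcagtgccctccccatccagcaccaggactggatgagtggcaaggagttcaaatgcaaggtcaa
Of all 100-base windows in their exons, 97.8% of those of Iglc2 and 100% of those of each other member occurred once in the genome. With 50-base windows the share fell to 80.2% for Iglc2, 92.7% for Ighg2b and 93.2% for Ighg2c, and with 150-base windows, the length of 1 read, it was 100% for every member. The values of Iglc2, Ighg2b and Ighg2c are the ones most open to a shorter or trimmed read being lost or shared with a copy. To a lesser degree this holds for Jchain, Ighg3 and Ighg1, with 97.7%, 98.2% and 99.6% of 50-base windows unique.

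Ighm and Igkc were the highest members in both sexes, by mean and per kb. The mean normalized count of Ighm was 264 in male and 289 in female liver, and that of Igkc was 139 and 111. Jchain followed at 41.1 in males and 32.4 in females, and Igha at 40.3 and 34.1. The IgG genes had smaller means: Ighg2b had a mean of 34.4 in males and 14.1 in females, and Ighg1 of 11.4 and 7.68. In males Ighg2c had a mean of 18.6, Iglc2 of 6.33, Ighg3 of 3.88 and Mzb1 of 2.43. These 4 genes are not listed in the female table, whose lowest listed mean is 6.61. Iglc2, Ighg3 and Mzb1 have male means under that minimum, whereas Ighg2c is 1 of 106 genes, among 16581 with a male mean of 10 or more, that are not listed for females.

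**Figure D1:**
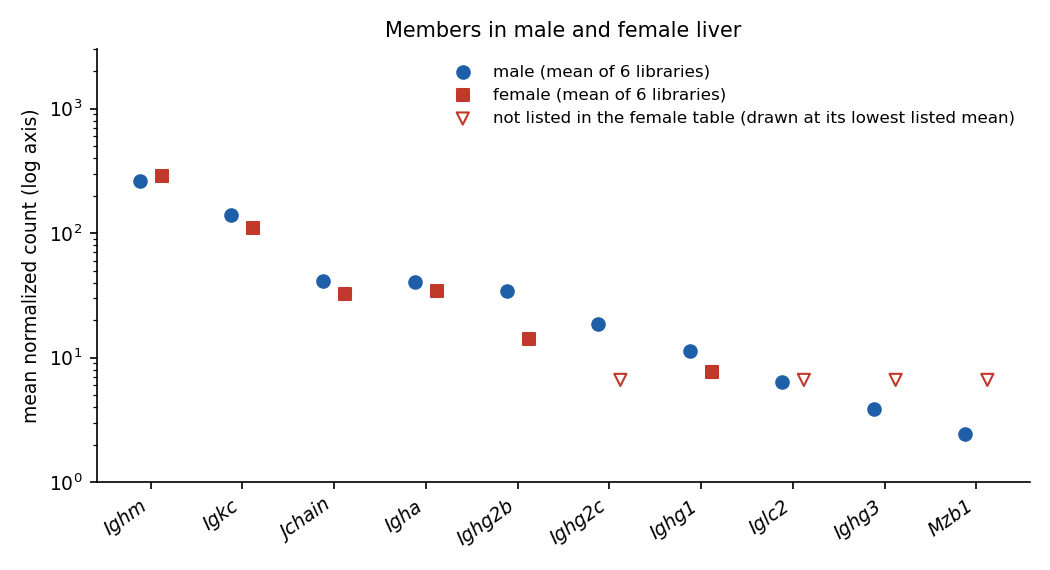
Mean normalized count of each member (log axis) in male liver (circles) and female liver (squares), each the authors' mean over 6 libraries of both genotypes; open triangles stand at 6.61, the lowest listed female mean, for members not listed there. Ighm and Igkc stand highest in both sexes, and of the 6 members listed in both, Ighg2b shows the widest gap between the sexes, 34.4 against 14.1.

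Together the members made up a very small part of liver RNA. Their means summed to 561 in males, 0.00185% of the sum over all genes, and to 488 in females, 0.00159%. By mean, Ighm ranked 8495th and Mzb1 20537th in the male table, in which 30304 genes have a mean above 0.

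Levels of different genes are compared per kb of exon, since a longer transcript gives more reads. On this scale Igkc was the highest member, at 261 normalized counts per kb in males and 208 in females, followed by Ighm at 140 and 153. Igkc was thus 1.86 times as high as Ighm in males per kb of exon, and 2.44 times as high per kb of coding sequence, whereas its undivided mean was lower. Jchain, Igha, Ighg2c, Ighg2b and Iglc2 lay close together in males, at 16.3, 15.1, 14.0, 12.8 and 10.4 normalized counts per kb of exon. Ighg1 stood at 4.39, and the lowest levels were those of Mzb1 at 1.69 and Ighg3 at 1.54. The order among these lower genes depends on the length used. The annotated exons of Ighg2c sum to 1326 bases against 2678 for Ighg2b, whose annotation holds a long last exon, and per kb of coding sequence Ighg2b was the higher of the pair, at 28.2 against 15.3. Since the means carry no spread over mice, it was not tested whether neighbours in this order differ.

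Among the 6 heavy chain members, IgM was the main class in both sexes. Ighm held 74.5% of the summed level per kb of exon in males and 84.2% in females, where Ighg2c and Ighg3 were set at the lowest listed mean. Igha held 8.03% in males and 7.04% in females. The 4 IgG genes together held 17.4% in males and 8.71% in females. Over the 4 heavy chain members listed for females alone, the IgG share was 4.72% and the Ighm share 87.9%, so the female IgG value rests in good part on the level set for Ighg2c and Ighg3. Within the IgG genes of males, Ighg2c held 7.46% of the heavy chain sum, Ighg2b 6.83%, Ighg1 2.34% and Ighg3 0.821%. Per kb of coding sequence the IgG share rose to 21.1% in males and 11.5% in females and the Ighm share was 66.6% and 77.4%. Of the light chain members, Igkc held 96.2% of the sum of Igkc and Iglc2 in males, and 85.2% when the other lambda constant genes were added to the sum. The mouse lambda genes are few, and kappa is known as the usual light chain of mouse antibodies.

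The constant genes that are not members completed this picture. Ighd, which encodes the IgD chain made by mature B cells that have not switched class, had a mean of 89.7 in males and 106 in females, and per kb of exon it stood at 47.2 and 55.6, above every member other than Ighm and Igkc. Per kb of exon, Ighm was 2.97 times as high as Ighd in males and 2.75 times in females. Of the other lambda constant genes, Iglc1 had a male mean of 9.71, Iglc3 5.90 and Iglc4 0.152, and Iglc3 had a female mean of 8.16. Ighe, the constant gene of IgE, was listed at 0 in males and Ighg2a is in neither table; C57BL/6J mice, in whose embryos this line was made, are known to carry Ighg2c in its place.

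Markers of the cells that could carry these transcripts were read from lists, and since they do not point to plasma cells alone, the members are named here as immunoglobulin genes. Of the 20 plasma cell genes, 11 had a male mean of 100 or more, among them Hsp90b1 at 22212, Edem1 at 7822, Xbp1 at 5639 and Sdc1 at 4995, the 4 with the highest mean over both tables. Such means are common, since Igkc, at 139, ranked 10221st of all genes in males. Hsp90b1, Edem1 and Xbp1 serve protein folding and secretion in every secretory cell and Sdc1 is made by epithelial cells too, so their level in liver does not mark plasma cells. Tnfrsf17, the receptor on mature plasma cells that binds the survival factor APRIL, had a male mean of 0.569 and is not listed in the female table. Other genes of the list that plasma cells use, named after their values were seen, were listed in both sexes: Prdm1, the regulator of plasma cell differentiation, had means of 43.6 in males and 31.4 in females, Irf4 21.0 and 30.0, Pou2af1 28.9 and 34.8, Derl3 59.7 and 57.8, and Slamf7 42.4 and 44.0. None of these is made by plasma cells alone, Irf4 and Pou2af1 being B cell genes too. In the B cell list, 18 of 19 genes had a mean above 0 in males, beside 30304 of all 56884 genes. All 18 of these B cell genes are among the 18149 genes listed in females. Bank1, an adaptor of B cell receptor signalling and the highest of them per kb, had a mean of 216 in males and 255 in females, and Cd22, a lectin that restrains that signalling, had means of 74.2 and 101. Blnk, the linker of the B cell receptor, had means of 116 and 119, and Ciita, which switches on MHC class II genes and is shared with other antigen-presenting cells, 184 and 147. In bulk liver, fewer cells of a type and less RNA per cell cannot be told apart.

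The other lists place the members on the scale of the liver. Per kb of exon, the median of the 10 members in males was 13.4, beside 6.86 for the B cell genes, 1.15 for the neutrophil genes and 13.0 for the other constant genes. The Kupffer cell and macrophage genes had a median of 294.8, the sinusoidal endothelial and stellate genes 186, the erythroid genes 267 and the hepatocyte genes 30252. Igkc, at 261, lay above all 19 B cell genes, of which the highest reached 28.9, and above all 15 T and NK cell genes, which reached 24.4. Of the 10 genes of antibody transport and Fc receptors, 3 lay above Igkc: Pigr, the epithelial receptor that carries J chain-linked IgA and IgM across cells, had 11235 normalized counts per kb in males, Fcgrt, the receptor that saves IgG from degradation, 731, and Fcgr2b, the inhibitory IgG receptor of liver endothelium, 345. Trim21, which binds antibody inside cells, had 66.2, and Fcamr, a receptor for IgA and IgM, had 2.81 in males and is not listed in the female table.

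**Figure D2:**
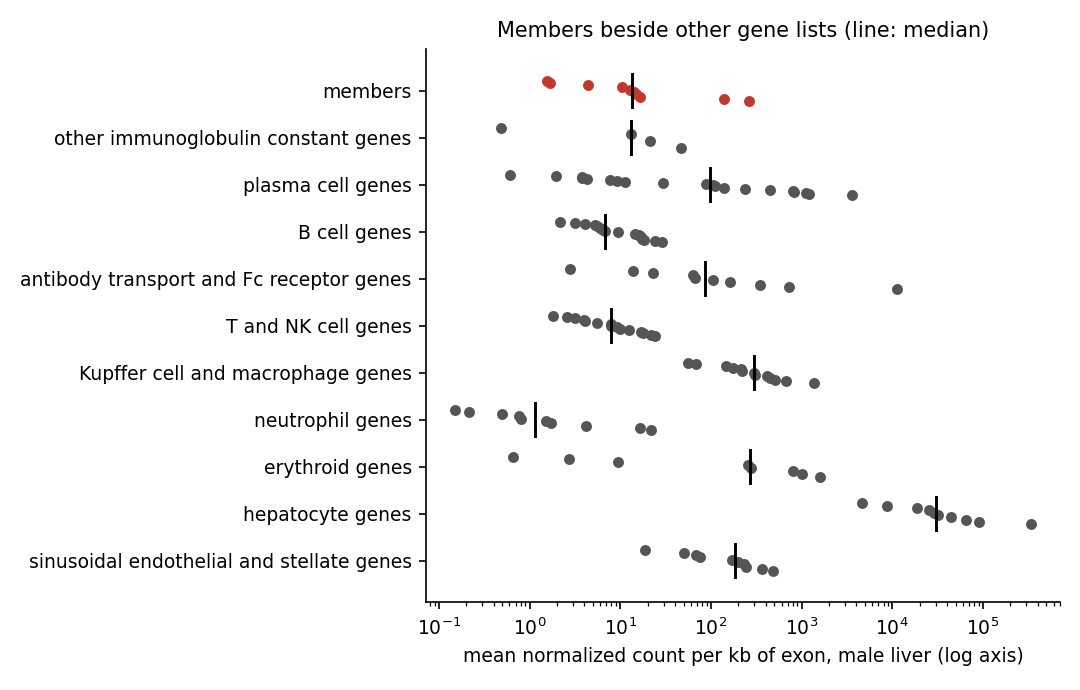
Mean normalized count per kb of exon (log axis) in male liver for each gene of the 11 lists, with the members in red and a black line at the median of each list; genes at 0, such as Ighe, are not drawn but enter the median. The members span 1.54 to 261 and overlap the B cell and T cell genes, below the Kupffer cell genes except for Ighm and Igkc.

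The 2 sexes were set side by side without a test, because their tables were normalized separately and the means carry no spread. Over the 6 members listed in both, the summed female mean was 0.921 times the male one, 488 against 530. Ighg2b differed most, with a female mean 0.410 times the male one, and Ighg1 followed at 0.674. Jchain at 0.789, Igkc at 0.800 and Igha at 0.848 were also lower in females, whereas Ighm was 1.09 times the male mean but 0.906 times when both tables were scaled to the same sum of the hepatocyte list. That scaling moved the median of all genes by -0.27 on the log2 scale. Alb made up most of the hepatocyte sum, 1.73e+06 of 2.65e+06 in males, and its female mean was 1.35 times the male one. Of the 10 hepatocyte genes 7 were lower in females, with a median ratio of 0.918, so the scaling follows Alb more than the list's typical gene. Relative to the median of all genes, Ighm was 1.06 times the male mean. The other 5 members stayed below 1 under each of the 5 scalings. How the reads of the 6 members divide over the male mice is not known. Of the variable gene reads described below, 1 male library held 45.4%. Its part in the differences between the sexes was not tested. Across the 16283 genes with a mean of 10 or more in both tables, the median ratio was 1.04 and the quartiles were 0.916 and 1.21. Of these genes, Ighg2b, Jchain, Igkc and Igha lay under the lower quartile. So did Ighg1, which is not in that set because its female mean was 7.68. The quartiles were not matched for the level of the gene. The B cell genes leaned the other way, with 14 of the 16 that have a mean of 10 or more in both tables higher in females, and a median ratio of 1.19, which became 0.990 with the hepatocyte list at the same sum. Of all genes with such means, 57.5% were higher in females, and so were 11 of 13 T and NK cell genes, 9 of 10 endothelial and stellate genes and 8 of 9 genes of antibody transport and Fc receptors.

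The male table also holds values for single libraries, although it does not print them. Since a mean is a sum of whole reads, each worth a fixed amount in its library, the means of genes with a single read took 6 values, which gave the 6 size factors: 1.27, 1.15, 1.13, 1.10, 0.938 and 0.598. The libraries are numbered 1 to 6 in that order; the mean does not say which are WT and which Midn-T, so they form no groups here. Of 13723 genes with a mean above 0 and under 10, 13366 (97.4%) had a single set of 6 read counts that gives their mean to 9 decimals. Among the members these are Ighg3, Iglc2 and Mzb1. The other members have means that too many combinations of reads can give, and the female table lists no gene low enough for its size factors to be read.

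Ighg3 reads came mostly from 1 library. Libraries 1 to 6 had 2, 16, 0, 0, 1 and 4 reads of Ighg3, or 1.57, 13.9, 0, 0, 1.07 and 6.69 after division by the size factor. Library 2 held 69.6% of its 23 reads (95% Clopper-Pearson interval 47.1 to 86.8%, which covers counting error only), and without that library the mean fell from 3.88 to 1.86. In libraries 3 and 4 the absence of a read allows up to 2.66 and 2.73 normalized reads (3 reads). The IgG3 constant gene was therefore seen in 4 of the 6 libraries at this depth.

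Iglc2 was found in every library, with 10, 8, 3, 4, 8 and 5 reads, or 7.85, 6.97, 2.66, 3.64, 8.53 and 8.36 normalized reads. No library stood apart, and leaving out any library kept the mean between 5.90 and 7.07. The lambda constant gene Iglc1 had 3, 22, 8, 8, 10 and 7 reads, with the highest normalized value, 19.2, in library 2 as for Ighg3.

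Mzb1, the plasma cell chaperone, had 4, 1, 2, 3, 1 and 3 reads, which are 3.14, 0.872, 1.77, 2.73, 1.07 and 5.01 normalized reads. The library with the most Ighg3 had the lowest normalized Mzb1. Mzb1 had only 14 reads in all, and whether its level differs between libraries was not tested. Tnfrsf17 had 2 reads in library 2, 1 in library 6 and none elsewhere.

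**Figure D3:**
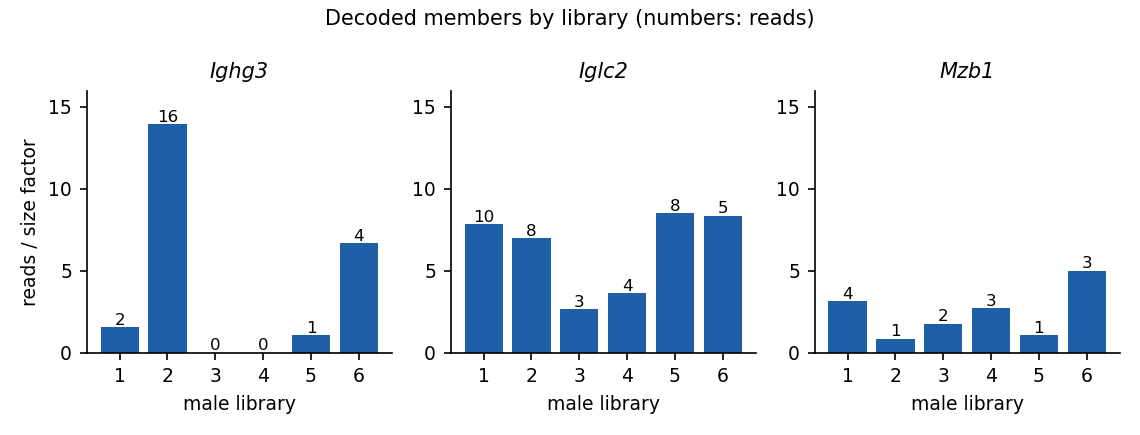
Reads divided by the size factor in each of the 6 male libraries for Ighg3, Iglc2 and Mzb1, with the number of reads above each bar; the libraries hold both genotypes and carry no label. Ighg3 stands at 13.9 in library 2 and at 6.69 or lower in the others, while Iglc2 and Mzb1 have reads in every library.

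The variable genes, which differ from one B cell clone to the next, could be decoded in full. The male table lists 346 of them, of which 158 have a mean above 0, and none reaches a mean of 10; the female table lists none. Their means summed to 165, and the 10 highest held 31.7% of that sum. The summed reads of libraries 1 to 6 were 113, 472, 146, 112, 117 and 79, and 62, 108, 76, 54, 61 and 41 different variable genes had a read. After division by the size factors, library 2 stood at 411 and the others between 88.7 and 132. Library 2 held 45.4% of all 1039 variable gene reads (95% interval 42.4 to 48.5%) but 21.5% of the 155951 reads of all decoded genes. Without it the sum of the means fell from 165 to 115.

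Heavy and kappa variable genes shared this pattern. Heavy chain variable genes had 26.7, 181, 60.3, 46.4, 56.5 and 38.4 normalized reads in libraries 1 to 6, and kappa variable genes 54.2, 214, 59.4, 52.8, 61.8 and 80.2. In both, library 2 lay far above the rest. Lambda variable genes were fewer, at 7.85, 16.6, 9.76, 2.73, 6.40 and 13.4, and library 6 came close to library 2. The lambda part of light chain variable reads was between 4.92% in library 4, on 61 reads, and 14.3% in library 6, on 56 reads, and its intervals overlapped in all 6 libraries (1.03 to 13.7% and 6.38 to 26.2% in these).

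**Figure D4:**
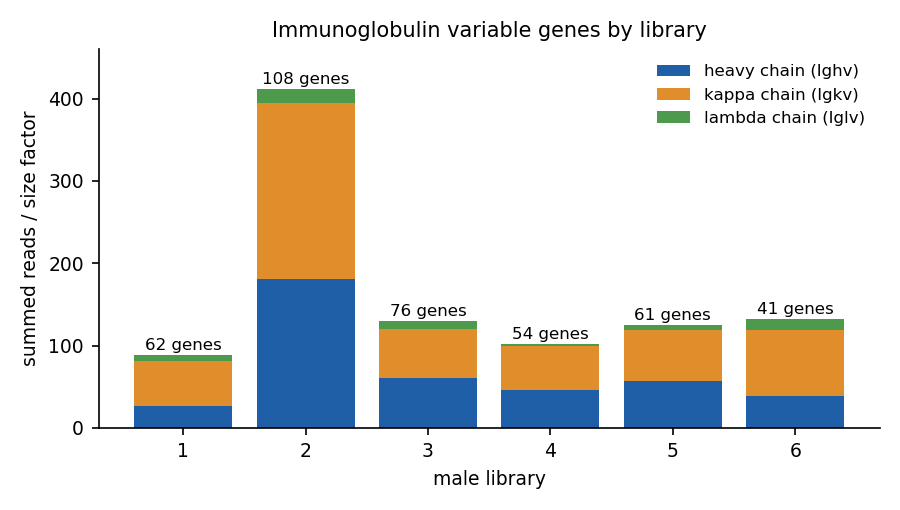
Summed reads divided by the size factor for heavy, kappa and lambda variable genes in each male library, stacked, with the number of variable genes that had a read above each bar. Library 2 reaches 411 with 108 genes, and the other libraries lie between 88.7 and 132 with 41 to 76 genes.

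The 5 variable genes of highest mean, with library 2 included, were Ighv1-82, Igkv1-110, Iglv1, Ighv1-26 and Igkv10-96. Ighv1-82 had 0, 50, 5, 1, 2 and 0 reads, so that 86.2% of its 58 reads (interval 74.6 to 93.9%) lay in library 2. The first 300 bases of its main exon (chr12:115916163-115916462, minus strand, GRCm39) are printed in lower case as the germline segment of the variable gene with the highest mean.
Ighv1-82: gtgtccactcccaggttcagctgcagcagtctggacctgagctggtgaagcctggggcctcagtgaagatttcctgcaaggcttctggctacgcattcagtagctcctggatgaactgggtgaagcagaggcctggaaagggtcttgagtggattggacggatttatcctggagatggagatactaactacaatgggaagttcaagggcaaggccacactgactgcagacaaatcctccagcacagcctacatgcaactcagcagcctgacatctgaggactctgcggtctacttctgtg
All 100-base windows of Ighv1-82 occur once in the genome. Igkv10-96, also with 100% of such windows unique, had 0, 24, 1, 0, 3 and 4 reads, and Igkv1-110 had 0, 20, 10, 9, 4 and 0. Iglv1 had 2, 16, 7, 3, 4 and 5 reads. Ighv1-26 did not follow them: it had 3, 5, 5, 9, 8 and 4 reads, with its highest normalized value, 8.53, in library 5. Of the 100-base windows of Igkv1-110, 79.9% occur once, and of those of Ighv1-26, 90.3%. With 150-base windows, the length of 1 read, the share was 100% for both. A shorter or trimmed read of these genes may have been dropped as ambiguous.

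The excess in library 2 did not rest on Ighv1-82 alone. Without Ighv1-82 the variable genes had 88.7, 368, 125, 101, 123 and 132 normalized reads, and library 2 was still the highest. Of the 32 variable genes with 10 or more reads, 13 (40.6%) had more than 50% of them in library 2 and none had more than 50% in any other library. The reads of library 2 count toward the 10, and each of these 13 genes had fewer than 10 reads outside it. The filter thus favoured genes high in library 2, and the 13 do not show how widely the excess was spread. Among all 4956 decoded genes with that many reads, 132 (2.66%) had more than 50% in library 2 and 294 (5.93%) in any library. Reads in a single library were found for 47 variable genes, many of them with only 1 read in all, which can lie in 1 library only. For 17 of the 47 it was library 2, which held 45.4% of all variable gene reads. The 47 therefore do not show how the excess is spread. In all 6 libraries, 7 variable genes had a read.

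**Figure D5:**
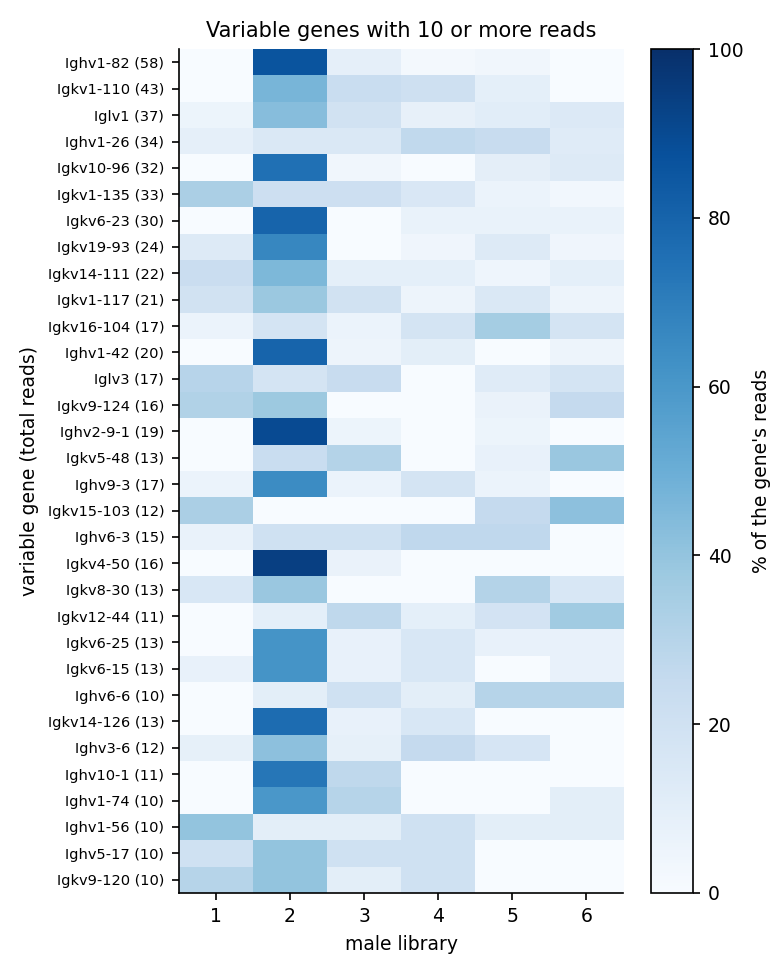
Share of each variable gene's reads found in each male library (colour, 0 to 100%), for the 32 variable genes with 10 or more reads, ordered by mean from the top, with total reads in brackets. Dark cells lie in library 2 for 13 genes, while Ighv1-26 and several lower genes are spread over the libraries. The 10 reads include those of library 2, without which none of these 13 genes would reach 10.

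Markers of other blood cells were read in the same libraries. The 7 decoded neutrophil genes had 9, 30, 2, 4, 7 and 1 reads in libraries 1 to 6, or 7.06, 26.2, 1.77, 3.64, 7.46 and 1.67 normalized reads, so library 2 was highest here too. Ngp, a granule protein of neutrophil precursors, had 0, 11, 0, 0, 1 and 1 reads, and Camp, another granule protein, had 3 reads, all in library 2. Retnlg had 4, 6, 0, 2, 1 and 0 reads, Mmp8 had 1, 6, 2, 2, 2 and 0, and Ly6g had 1 read, in library 2. Mpo had 2, 2, 0, 0, 1 and 0 reads. Elane had 2, 1, 0, 0, 2 and 0, with its highest normalized value in library 5. The T cell gene Cd8b1, named after its values were seen, had 7, 14, 3, 3, 6 and 3 reads. The 2 decoded plasma cell genes, Tnfrsf17 and Cd27 (the latter also made by T cells, and named after its values were seen), summed to 5, 20, 8, 11, 12 and 3 reads. The B cell list was not higher there: its 2 decoded genes had 18, 10, 21, 12, 9 and 8 reads. Nor were the 2 decoded erythroid genes, with 7, 7, 6, 15, 13 and 9. The part of these other cells in the variable gene values of library 2 was not tested, and whether that library is WT or Midn-T is not known here.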

How the data were processed

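Livers of 3 WT and 3 Midn-T mice per sex were profiled by stranded, paired-end sequencing of rRNA-depleted RNA. Alignment to GRCm39 was done by the authors with STAR (2.7 in the submitters' processing notes). Reads with a single place in the genome were counted per Ensembl gene by HTSeq, set to reverse strand, and the authors compared the genotypes with DESeq2 separately for each sex. The signal values used here are the deposited means over the 6 libraries of a sex of counts divided by size factors. The remaining columns hold the authors' own comparison of Midn-T with WT (fold change, standard error, statistic and p-values) and were not used, nor were the ATAC-seq lists of regions. No library's total depth is printed in the tables.

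Lengths and coordinates came from GENCODE M39 on GRCm39, which holds all 476 genes of the lists and variable gene families that were looked up. Window uniqueness was counted over the whole genome on either strand. Size factors and reads of male libraries were decoded from means under 10, a step chosen after seeing the data and tested on simulated data; only genes with a single solution were used. Intervals are exact binomial at 95% and cover counting error only. No test between groups was run. Members and lists were chosen with earlier results of these data known. Named beside the 10 members are the 5 variable genes of highest mean and, of each list, the 4 genes of highest mean over both tables and those at 0 or not listed, or fewer; genes named outside this rule are said to be so. Alternatives were other lengths, other gene sums, other scalings, a pseudocount of 1, other minimum means and windows, and leaving out each decoded library. The software was numba 0.67.0, scipy 1.17.1, matplotlib 3.10.9, pandas 2.3.3 and numpy 2.4.6 under Python 3.11.15.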

Additional observations from a re-analysis of the deposited data

Results flagged for a closer look

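In 5 of the 12 values examined over the 6 male libraries, library 2 stood far above the others, by the gap to the next library divided by the whole range, against the 95% critical value of Dixon for 6 values. The gap was 0.866 of the range for all variable genes, 0.782 for the heavy chain variable genes, 0.829 for the kappa variable genes, 0.898 for Ighv1-82 and 0.680 for Igkv10-96. Ighg3, Iglc2, Mzb1, Igkv1-110, Iglv1, Ighv1-26 and the lambda variable genes stayed under the critical value. Of the 32 variable genes with 10 or more reads, 12 exceeded it, each with library 2 highest. The critical value flags about 1 in 20 groups of normally distributed values, a rate not known to hold for low read counts with zeros. The share of all decoded genes above it was not computed, so the count of 12 has no background to be set against. The sums contain the single genes. The 6 libraries hold both genotypes, so a gap between libraries may also follow the genotype, which was not tested.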

How the results depend on the processing

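No paired analysis was possible because the deposited means pool the 6 libraries of a sex and no test was run. Of the other settings that were planned, 40 stayed close to the reported value and 31 moved. Of those added after seeing the data, 21 stayed and 10 moved. Close meant within an approximate counting interval, with the mean times 6 libraries taken as reads. For unique windows the interval was on the number of windows, for decoded genes on their reads. Counts of variable genes were held to a fixed ratio. Adding all other constant genes, with those not listed for females set at the lowest listed mean, moved the kappa share to 85.2% in males and 76.4% in females, the IgG share to 13.9% and 6.56%, the Igha share to 6.42% and 5.30%, and the Ighm share to 59.6% and 63.4%. With constant genes not listed for females left out, a setting added after seeing the data, the female shares were 92.0% for kappa, 3.58% for IgG, 5.57% for Igha and 66.6% for Ighm, and over the listed members alone 4.72% for IgG and 87.9% for Ighm. Coding length moved the IgG share to 21.1% and 11.5%, the Igha share to 12.3% and 11.1%, and the Ighm share to 66.6% and 77.4%. Without length division the Igha share was 10.8% and 9.54% and the Ighm share 70.9% and 80.7%; over unique windows the Igha share was 6.57% and 5.76%. Without the 10 highest genes the members' share of the table was 0.00219% and 0.00194%. The female over male ratio was 0.763 with the hepatocyte list, whose sum is mostly Alb, at the same sum. With no minimum, 158 variable genes were present in males, against 0 with a mean of 10 or 20. With 50-base windows the unique share was 92.7% for Ighg2b, 93.2% for Ighg2c, 99.6% for Ighg1, 98.2% for Ighg3, 80.2% for Iglc2 and 97.7% for Jchain; with 150 bases it was 100% for Iglc2. Leaving out each male library in turn, an alternative added after seeing the data, gave 1.86 to 4.65 for Ighg3 (lowest without library 2), 5.90 to 7.07 for Iglc2, 1.92 to 2.74 for Mzb1, and 115 to 179.9 for the sum of all variable genes (lowest without library 2). Means without spread, few reads per library and unlabelled libraries limit what can be read: no difference between genotypes or sexes was tested, and female values of 4 members are not known.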
